A study of Mus musculus with 6 samples.

Results

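Fezf2, its paralog Fezf1 and the Groucho family genes Tle1, Tle2, Tle3, Tle4, Tle6 and Aes were read out in newborn mouse cerebral cortex of Fezf2 mutant and control pups. The 8 genes were chosen by symbol, each matched 1 entry, and together they are 8 of the 23016 entries of the deposited table. Total RNA was taken from the dissected cortex of single pups at postnatal day 0. The Fezf2 KO group held 3 Fezf2-/- pups and the wild type group held 3 Fezf2+/+ pups, all born to Fezf2+/- parents that were bred with each other. Fezf2 KO 1, Fezf2 KO 2, wild type 1 and wild type 2 came from litter m1, and Fezf2 KO 3 and wild type 3 from litter m2. What the Fezf2 allele deletes is not stated in the sources used. No other allele, agent or strain is named in the labels.

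Groucho proteins, called TLE in mammals, do not bind DNA themselves. They are brought to genes by transcription factors that carry short docking motifs, among them the eh1 motif of the Engrailed type and the WRPW motif at the end of Hes proteins, and they recruit histone deacetylases that silence transcription. Fezf2, needed for deep-layer neurons of the cortex, encodes a zinc finger protein with an eh1 motif near its N-terminus and acts largely as a repressor. Tle1, Tle2, Tle3 and Tle4 are the full-length corepressors, Tle6 is a divergent member best known for its maternal role in the early embryo, and Aes is a short member without the WD repeats that can oppose the others. In cortex, Tle4 is a marker of layer 6 corticothalamic neurons.

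The start regions of the genes whose levels differed most, or that share a sequence element, are shown as the RefSeq windows of build GRCm38.p6, which run from 250 bases before to 50 bases after an annotated start. Of the 8 genes, 7 had a window, with 9 windows in all, and Aes had none. Capitals mark the E-box CACGTG, which reads the same on both strands and which basic helix-loop-helix factors such as Hes, Hey and Myc proteins are known to bind. The value files use build mm9, so these windows serve as sequences only.
Fezf2, chr14:12345816-12346115, minus strand: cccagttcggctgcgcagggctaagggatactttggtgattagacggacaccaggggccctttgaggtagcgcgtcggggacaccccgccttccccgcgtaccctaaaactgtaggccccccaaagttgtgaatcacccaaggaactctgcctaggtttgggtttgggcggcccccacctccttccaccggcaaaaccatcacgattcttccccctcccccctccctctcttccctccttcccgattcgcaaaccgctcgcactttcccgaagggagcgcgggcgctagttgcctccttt
Tle4, chr19:14598134-14598433, minus strand: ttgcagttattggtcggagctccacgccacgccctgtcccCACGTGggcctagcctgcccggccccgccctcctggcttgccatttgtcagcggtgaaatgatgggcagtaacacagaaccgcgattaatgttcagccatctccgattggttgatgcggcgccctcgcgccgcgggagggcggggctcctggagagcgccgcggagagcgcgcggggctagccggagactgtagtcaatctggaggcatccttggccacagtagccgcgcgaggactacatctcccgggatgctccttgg
Tle3, chr9:61372116-61372415, plus strand: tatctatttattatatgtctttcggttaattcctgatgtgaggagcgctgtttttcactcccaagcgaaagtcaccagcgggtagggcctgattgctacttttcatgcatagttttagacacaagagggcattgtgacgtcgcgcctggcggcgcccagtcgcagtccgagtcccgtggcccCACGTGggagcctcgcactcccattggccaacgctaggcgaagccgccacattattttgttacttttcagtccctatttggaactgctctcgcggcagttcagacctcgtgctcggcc
Tle6, chr10:81600851-81601150, minus strand: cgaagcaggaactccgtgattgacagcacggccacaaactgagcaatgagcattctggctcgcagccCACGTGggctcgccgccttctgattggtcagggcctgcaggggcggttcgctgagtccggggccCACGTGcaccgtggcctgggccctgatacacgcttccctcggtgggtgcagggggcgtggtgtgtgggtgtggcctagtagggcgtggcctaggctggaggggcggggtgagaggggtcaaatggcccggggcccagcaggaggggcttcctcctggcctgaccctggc

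The E-box CACGTG stood in 3 of the 9 windows, those of Tle3, Tle4 and Tle6, and in 7.15% of all 32851 windows in the RefSeq table. In Tle4 it began 210 bases before the start, in Tle3 68 bases before it, and in Tle6 183 and 119 bases before it. Once these windows had been read, the E-box was lengthened by the flanking bases shared around its first copy in all 3 windows. This gave the palindrome CCCACGTGGG, so its presence in the same 3 windows was fixed by how it was made. It stood in 0.119% (39) of all windows, which is a description and no measure of enrichment. It includes the CACGTG, so the counts are not separate, and a match in letters is not a measured binding site. A further Tle4 start, 970 bases downstream of the one shown, had neither motif, nor did a further Tle6 window (chr10:81597318-81597617) or the Fezf2 window. The GC box GGGCGG, counted on both strands, stood in 7 of the 9 windows and in 35.7% of all windows. The CCAAT box, counted in the same way, stood in 4 of the 9 windows and in 37.4% of all windows. The 3 genes with the palindrome had log2 changes of -1.69 (Tle4), 0.38 (Tle3) and -0.14 (Tle6) in Fezf2 KO over wild type cortex.

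Levels are given as normalised read counts, that is the reads of a gene divided by the size factor of its library, always in the order of replicates 1, 2 and 3. Whole reads could be recovered from these values and numbered 44978380 to 52872577 per library. A change is the log2 ratio of Fezf2 KO to wild type on the normalised count plus 1, tested in limma over 17557 genes, and a gene counts as changed at an adjusted p under 0.05. The markers of cortical glutamatergic neurons Neurod6, Neurod2, Emx1, Slc17a7 and Tbr1 were present in every library, and each overlapped between genotypes. The full list of 6 such markers summed to 101653, 89441 and 94107 in the Fezf2 KO libraries, against 88804, 88365 and 86623 in wild type. This sum did not overlap and was higher in every Fezf2 KO library. Neurod6 had 12477 to 15269.5 in Fezf2 KO cortex and 12003 to 12837 in wild type cortex. All 10 striatal neuron markers were present in every library, and 5 of them were lower in Fezf2 KO cortex without overlap. Of all tested genes, 14.5% had no overlap in either direction. The striatal markers summed to 5490, 10762 and 6774 in the Fezf2 KO libraries, against 16422, 14278 and 12708 in the wild type libraries. The 5 choroid plexus markers summed to 9514 in Fezf2 KO 1 and to 113 and 115 in Fezf2 KO 2 and 3, against 54.2 to 82.9 in wild type cortex. Meningeal markers, also 5, summed to 783 to 947 in Fezf2 KO cortex, against 4926 in wild type 1 and 793 and 592 in wild type 2 and 3. Values without Fezf2 KO 1 and wild type 1, an alternative chosen after the data were seen, are given beside the changed genes and Tle3. In whole tissue, fewer cells of a type and less RNA per cell cannot be told apart.

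Of the 8 genes, 7 passed the filter, which asked for 3 or more libraries at 10 or above, and 2 of the 7, Fezf2 and Tle4, changed, both lower in Fezf2 KO cortex. Over all genes tested, 0.712% changed, 0.404% higher and 0.308% lower. The other 5 tested genes did not pass, and 3 of the 7 (Fezf2, Tle4 and Tle3) had no overlap between genotypes, as 14.5% of all tested genes did.

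**Figure D1:**
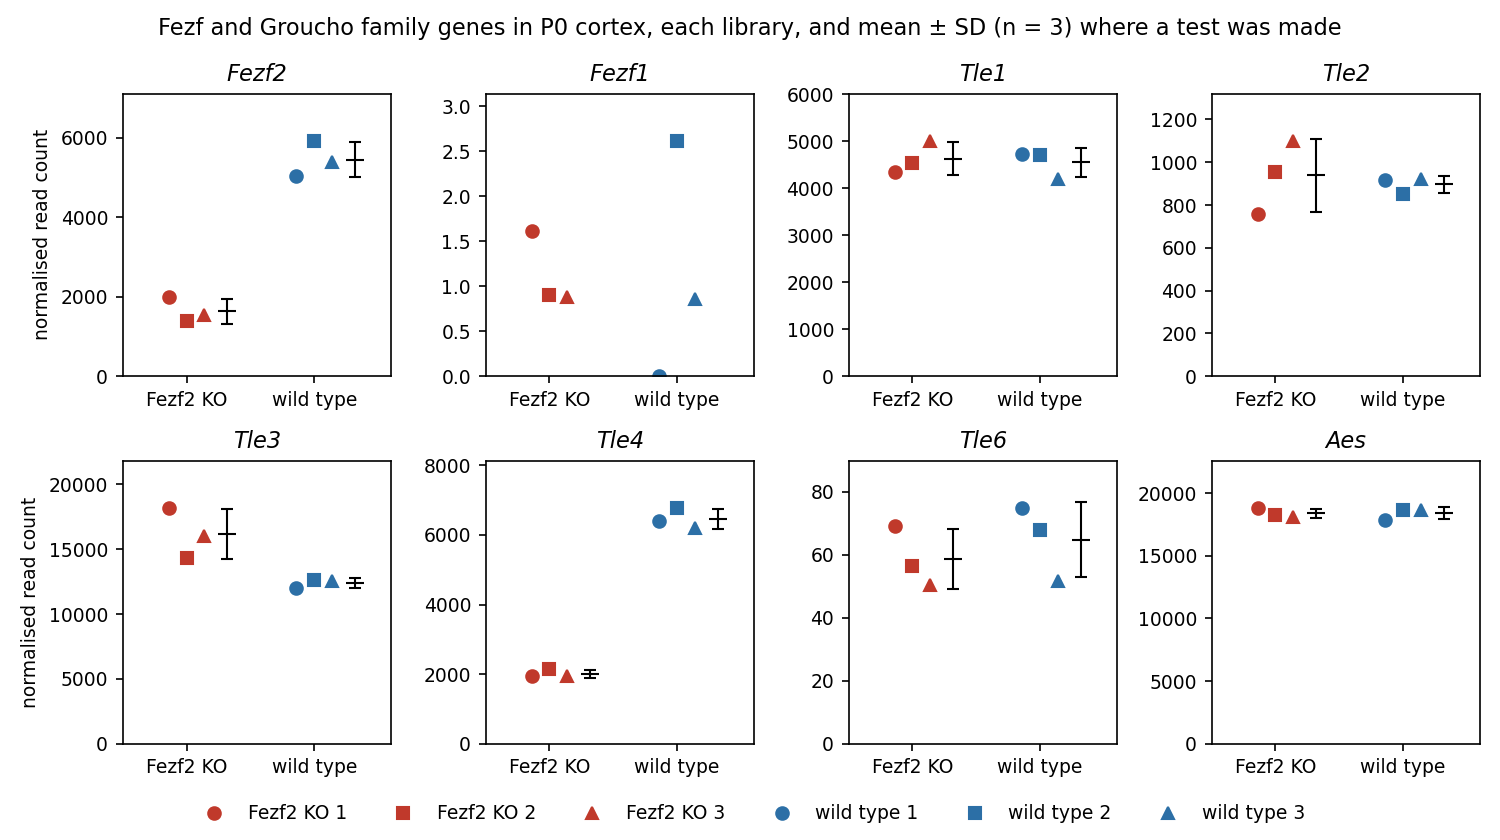
Normalised read count (vertical axes, from 0) of the 8 genes in each library, with Fezf2 KO libraries in red and wild type libraries in blue; black bars give mean ± SD over 3 libraries and are not drawn for Fezf1, which did not pass the filter. Fezf2 and Tle4 lie far lower in the Fezf2 KO libraries, Tle3 lies higher in each of them (14323 to 18176 against 12002 to 12666), and Tle1, Tle2, Tle6 and Aes overlap.

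Fezf2, the gene targeted in these mice, had 1989, 1377 and 1533 in the Fezf2 KO libraries, against 5030, 5928 and 5396 in the wild type libraries. Every Fezf2 KO library lay below every wild type library, and Fezf2 KO 1 was the highest of the 3 mutants. The level in Fezf2 KO cortex was 29.7% of that in wild type cortex by the fit (95% interval 24.2% to 36.4%; log2 -1.75, SE 0.13, limma adjusted p = 0.000832). Between 1533 and 2450 whole reads of the gene remained per Fezf2 KO library. Of the 17557 genes tested, 28 had a lower log2 change than Fezf2. With the 4 libraries of litter m1 alone, limma gave Fezf2 a log2 change of -1.72 and an adjusted p of 0.0595, and over all 14 alternatives the adjusted p ran from 2.11e-38 to 0.0595. The single pair of litter m2 gave -1.81 on the log2 scale. Without Fezf2 KO 1 and wild type 1 the log2 change was -1.96 (limma adjusted p = 0.00132).

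Fezf1, the paralog that acts in the developing olfactory system and hypothalamus, was at the limit of detection. Its reads were 2, 1 and 1 in the Fezf2 KO libraries, against 0, 3 and 1 in the wild type libraries, which is 8 reads in all. A library with 0 reads allows up to 3, or 2.44 to 2.81 normalised counts, so a difference between genotypes was not detectable at this depth. No Fezf2 KO library held more than 2 reads of Fezf1. With no filter, over 22813 genes, limma gave Fezf1 a log2 change of 0.16 (95% interval -1.02 to 1.34, adjusted p = 0.973). At such low values the added 1 compresses the log2 change, so this interval does not bound the fold change. The mean normalised count was 1.13 in Fezf2 KO cortex and 1.16 in wild type cortex.

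Tle4, the corepressor that marks corticothalamic neurons, fell to 31.0% of its wild type level in Fezf2 KO cortex (95% interval 28.1% to 34.2%). It had 1941, 2134 and 1933 in the Fezf2 KO libraries, against 6410, 6772 and 6188 in the wild type libraries. The mean was 2003 ± 114 in Fezf2 KO cortex and 6457 ± 295 in wild type cortex (SD, n = 3 each), and the lowest wild type library lay well above the highest Fezf2 KO library. The log2 change was -1.69 (SE 0.06, limma adjusted p = 3.63e-05), and 0 of the 17557 genes had a smaller p in this fit. By size, 37 genes had a lower log2 change. Litter m1 gave -1.69 and the single pair of litter m2 gave -1.68. The adjusted p of Tle4 was at most 0.00400 over 14 alternatives, with log2 changes from -1.74 to -1.65. Without Fezf2 KO 1 and wild type 1, the libraries with high choroid plexus and meningeal markers, the change was -1.67 (limma adjusted p = 0.00132).

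The falls of Fezf2 and Tle4 were of similar size. The ratio of Fezf2 to Tle4 counts was 1.02, 0.645 and 0.793 in the Fezf2 KO libraries, against 0.785, 0.875 and 0.872 in the wild type libraries. The 2 genotypes overlapped in this ratio, and it was more spread among the Fezf2 KO libraries. Among those libraries the order of the 2 genes differed, since Fezf2 KO 2 had the lowest Fezf2 and the highest Tle4. Fezf2 KO 2 also had the highest striatal marker sum of the mutants (10762, against 5490 and 6774), and the part of striatal tissue in the Tle4 values was not tested.

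**Figure D2:**
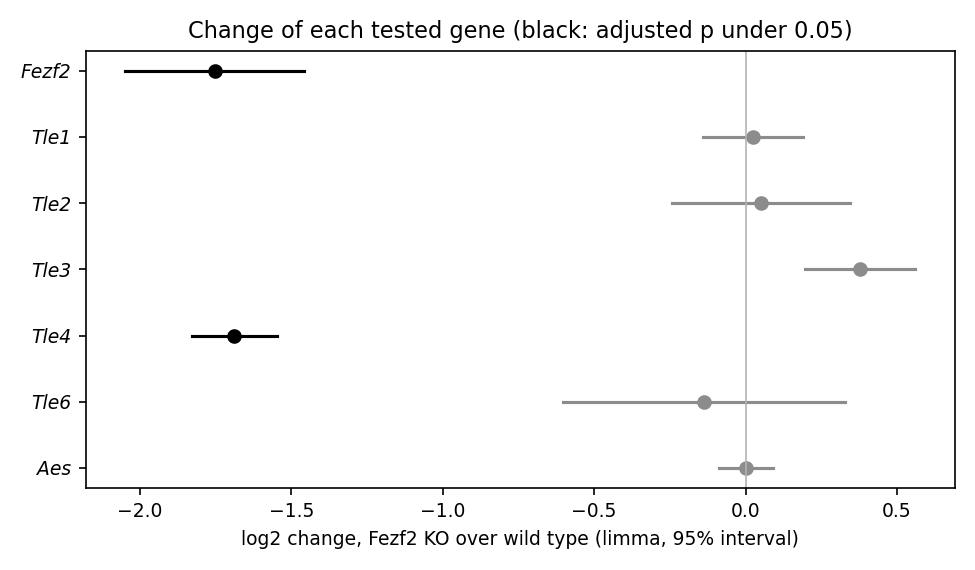
Log2 change of Fezf2 KO over wild type (horizontal axis) for the 7 genes tested, as points with 95% intervals from limma; black genes had an adjusted p under 0.05. Fezf2 (-1.75) and Tle4 (-1.69) lie together on the left, the interval of Tle3 runs from 0.20 to 0.56, and those of Tle1, Tle2, Tle6 and Aes cross 0.

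Tle3, the full-length family member with the most reads here, did not pass the test over all genes but had no overlap between genotypes. It had 18176, 14323 and 16041 in the Fezf2 KO libraries, against 12002, 12666 and 12524 in the wild type libraries. All 3 Fezf2 KO libraries were higher, with Fezf2 KO 1 farthest from wild type and Fezf2 KO 2 nearest. The fit put Fezf2 KO at 130% of wild type (95% interval 114% to 147%; log2 0.38, SE 0.08, limma adjusted p = 0.105). With litter m1 alone the log2 change was 0.39, and the pair of litter m2 gave 0.36. Tle3 passed in 2 of 14 alternatives, DESeq2 on recovered reads (adjusted p = 0.00111) and limma without Fezf2 KO 2 (log2 0.46, adjusted p = 0.0282), and the adjusted p ran from 0.00111 to 0.567 over the 14. Without Fezf2 KO 1 and wild type 1 it was 0.27 (limma adjusted p = 0.278). The order of Tle3 among the Fezf2 KO libraries was the reverse of that of the striatal marker sum, and the part of tissue makeup in this difference was not tested.

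Tle1, a full-length corepressor expressed in progenitors and neurons, had 4344, 4532 and 5013 in the Fezf2 KO libraries, against 4730, 4717 and 4198 in the wild type libraries. The genotypes overlapped, and the log2 change was 0.03 (95% interval -0.14 to 0.19, limma adjusted p = 0.970). Tle2, another full-length corepressor, had 759, 956 and 1101 in the Fezf2 KO libraries, against 917, 853 and 921 in the wild type libraries. It varied more among the mutants than among the controls, with an interval of -0.24 to 0.34. Both genes were lower in Fezf2 KO within litter m1 (-0.09 and -0.05) and higher in the single pair of litter m2 (0.26 for each), so neither had a stable direction.

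Tle6, the divergent member, was low. It had 69.0, 56.6 and 50.3 in the Fezf2 KO libraries, against 74.9, 68.1 and 51.6 in the wild type libraries, with overlap and a wide interval of -0.60 to 0.33 on the log2 scale. Its level is uncertain, because the table also lists an assembled transcript named as antisense to it, linc-Tle6-AS, and no source used here states the strand of the libraries. That entry had 9, 4 and 7 reads in the Fezf2 KO libraries, against 6, 6 and 4 in the wild type libraries. Tle6 itself had 57 to 85 reads per library. Aes, the short member that lacks the WD repeats, had the narrowest interval of the 7 genes tested. It had 18819, 18297 and 18144 in the Fezf2 KO libraries, against 17877, 18692 and 18669 in the wild type libraries. Its level in Fezf2 KO cortex was 94.1% to 106% of that in wild type cortex (95% interval), and the sign of its change differed between alternatives.

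Divided by exon length, the order of the genes differed between genotypes. Exon lengths came from the GENCODE M21 annotation of GRCm38, which is not the build of the files, and the unit is normalised counts per kilobase of exon. In Fezf2 KO cortex Aes was first with 13055 ± 251, followed by Tle3 with 2858 ± 341, Tle1 with 913 ± 68.1, Fezf2 with 536 ± 104, Tle4 with 439 ± 24.9, Tle2 with 299 ± 54.7 and Tle6 with 27.5 ± 4.45 (mean ± SD, n = 3). In wild type cortex the order was Aes with 13050 ± 329, Tle3 with 2190 ± 61.8, Fezf2 with 1789 ± 148, Tle4 with 1415 ± 64.6, Tle1 with 897 ± 59.8, Tle2 with 286 ± 12.3 and Tle6 with 30.4 ± 5.61. Fezf1 was last in both. Fezf2 and Tle4 overlapped in Fezf2 KO libraries (452 to 653 and 424 to 468), and no other neighbours in either order did. Tle1 thus stood above Tle4 in every Fezf2 KO library and below it in every wild type library.

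The makeup of the Tle transcripts shifted while their sum did not separate the genotypes. The summed normalised count of Tle1, Tle2, Tle3, Tle4 and Tle6 was 25289.7, 22000.2 and 24139 in the Fezf2 KO libraries, against 24134, 25076 and 23883 in the wild type libraries, and these overlapped. Tle4 held 7.68%, 9.70% and 8.01% of the sum in the Fezf2 KO libraries, against 26.6%, 27.0% and 25.9% in the wild type libraries. Tle3 held 71.9%, 65.1% and 66.5% in the Fezf2 KO libraries, against 49.7%, 50.5% and 52.4% in the wild type libraries. Neither share overlapped between genotypes, and a share of one member falls when another rises. The count without Tle4 was 23348, 19866 and 22206 in the Fezf2 KO libraries, against 17724, 18304 and 17695 in the wild type libraries. Tle1 shares overlapped (17.2% to 20.8% in Fezf2 KO and 17.6% to 19.6% in wild type). There were 8.12 ± 1.33 Tle3 counts per Tle4 count in Fezf2 KO cortex and 1.92 ± 0.0881 in wild type cortex (SD, n = 3 each). No test was made of these shares.

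**Figure D3:**
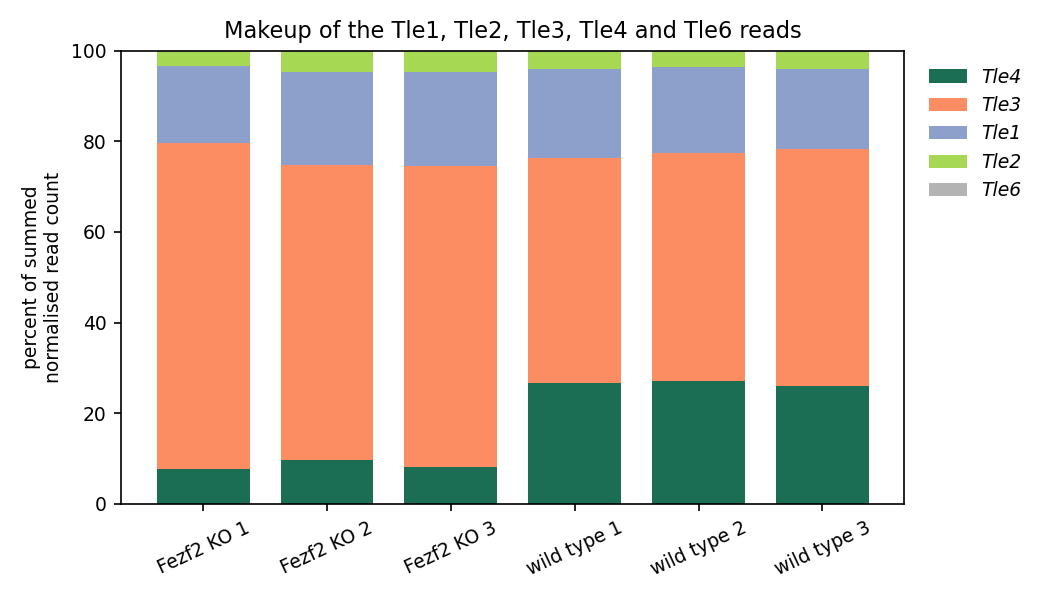
Percent of the summed Tle1, Tle2, Tle3, Tle4 and Tle6 normalised count (vertical axis) held by each gene in each library, Fezf2 KO on the left and wild type on the right. The Tle4 segment is 7.68% to 9.70% in Fezf2 KO libraries and 25.9% to 27.0% in wild type libraries, and the Tle3 segment is larger in each Fezf2 KO library.

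Other genes were described through 4 lists, of factors that recruit Groucho, of other corepressors, of nuclear Wnt factors and of projection neuron transcription factors. Of 30 DNA-binding factors known to recruit Groucho, 18 were tested and 0 changed by limma (0.712% of all tested genes). At an unadjusted p under 0.05 there were 4, among them Bcl6, Runx2 and Six3 (9.03% of all). EdgeR called 0 (0.689% of all) and DESeq2 called 1, Runx2 (2.3% of all). The median log2 change of the 18 was 0.06, against 0.00 over all genes tested. Hes6, a helix-loop-helix factor of the WRPW class, averaged 6946 ± 684 in Fezf2 KO cortex and 6647 ± 406 in wild type cortex (SD, n = 3 each). Chosen after their values were seen, Six3 and Runx2 were the 2 list members without overlap between genotypes, 11.1% of the 18 tested, against 14.5% of all tested genes. Six3, an eh1 homeobox factor that striatal neurons also express, averaged 186 ± 122 in Fezf2 KO cortex and 433 ± 95.2 in wild type cortex (limma adjusted p = 0.243). Runx2, a Runt factor, averaged 278 ± 12.5 in Fezf2 KO cortex and 198 ± 18.8 in wild type cortex (limma adjusted p = 0.125).

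Of 23 other corepressors and histone deacetylases, all were tested and 0 changed by limma (0.712% of all tested genes). At an unadjusted p under 0.05 there were 2 (Ctbp2, lower, and Hdac7, higher), against 9.03% of all. EdgeR and DESeq2 called 0 (0.689% and 2.3% of all), and 1 had no overlap between genotypes (4.35%, against 14.5% of all). The changes of this list lay between -0.22 and 0.15 on the log2 scale, with a median of 0.03. Ctbp1, a corepressor that docks to other motifs than Groucho does, averaged 19329 ± 1040 in Fezf2 KO cortex and 18797 ± 610 in wild type cortex, and Chd4, the ATPase of the NuRD complex, averaged 15985 ± 1021 in Fezf2 KO cortex and 14555 ± 1100 in wild type cortex (SD, n = 3 each). Of 11 nuclear Wnt factors, where Groucho meets TCF proteins in the absence of beta-catenin, all were tested and 0 changed by limma (0.712% of all). At an unadjusted p under 0.05 there were 2 (Axin2 and Pygo1, both higher), against 9.03% of all tested genes. EdgeR called 0 (0.689% of all) and DESeq2 called 1, Axin2 (2.3% of all). Ctnnb1, which encodes beta-catenin, averaged 28458 ± 998 in Fezf2 KO cortex and 27937 ± 1237 in wild type cortex. Bcl9l, a beta-catenin cofactor, averaged 12769 ± 290 in Fezf2 KO cortex and 13000 ± 347 in wild type cortex. The median log2 change of this list was 0.01. Axin2, a feedback target of Wnt signalling named here after its values were seen, averaged 2368 ± 192 in Fezf2 KO cortex and 1949 ± 44.1 in wild type cortex (log2 0.28, limma adjusted p = 0.176), without overlap. Of the 11 Wnt factors 3 (Axin2, Bcl9 and Pygo1) had no overlap between genotypes (27.3%, against 14.5% of all tested genes).

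Of 30 transcription factors of projection neuron identity, all were tested, 1 rose and 3 fell by limma, and 26 did not pass (over all genes 0.404% rose and 0.308% fell). At an unadjusted p under 0.05 there were 11 (9.03% of all tested genes), 4 were called by edgeR (0.689% of all) and 7 by DESeq2 (2.3% of all), and 11 had no overlap between genotypes (36.7%, against 14.5% of all). DESeq2 also called Etv1, Nr4a2 and Zeb2. The median log2 change was 0.04, against 0.00 over all genes tested. Zfpm2, a cofactor of GATA proteins, had 360, 371 and 338 in the Fezf2 KO libraries, against 1397, 1357 and 1225 in the wild type libraries (log2 -1.89, SE 0.08, limma adjusted p = 4.73e-05; -1.86 and 0.00209 without Fezf2 KO 1 and wild type 1). The forkhead repressor gene Foxp2 had 301, 512 and 325 in the Fezf2 KO libraries, against 1354, 1146 and 1207 in the wild type libraries (log2 -1.74, SE 0.19, limma adjusted p = 0.00594). Both are corticothalamic genes like Tle4, and neither genotype overlapped the other. Among the Fezf2 KO libraries Foxp2 had the same order as the striatal marker sum (5490, 10762 and 6774), which was itself lower in Fezf2 KO cortex, and the part of striatal tissue in the Foxp2 values was not tested. The adjusted p of Foxp2 was 0.154 in litter m1 alone and 0.0547 without Fezf2 KO 1 and wild type 1 (3.22e-17 to 0.154 over 14 alternatives). Tshz3, a zinc finger homeobox factor, had 3945, 3960 and 4450 in the Fezf2 KO libraries, against 5726, 5885 and 5522 in the wild type libraries (log2 -0.47, limma adjusted p = 0.0130). It did not pass limma when wild type 1 (adjusted p = 0.0541) or wild type 2 (0.0656) was left out, nor when Fezf2 KO 1 and wild type 1 both were (0.114; 9.83e-09 to 0.114 over 14 alternatives). Otx1, a homeobox factor of deep-layer neurons, rose to 2622, 2092 and 2612 in the Fezf2 KO libraries, against 1629, 1631 and 1616 in the wild type libraries (log2 0.58, limma adjusted p = 0.0350). Otx1 passed in 7 of 14 alternatives (adjusted p from 8.49e-07 to 0.366), and the limma adjusted p was 0.0885 and 0.141 with Fezf2 KO 1 or 3 left out and 0.106, 0.117 and 0.126 with wild type 1, 2 or 3 left out. It was 0.202 without Fezf2 KO 1 and wild type 1 together (log2 0.53).

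**Figure D4:**
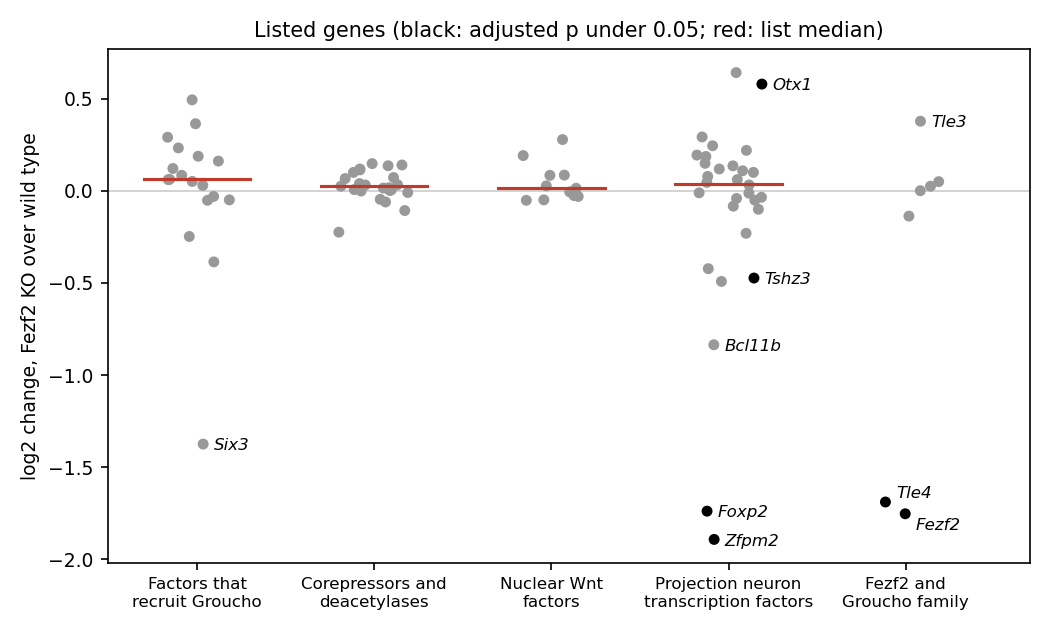
Log2 change of Fezf2 KO over wild type (vertical axis) for each tested gene of the 4 lists and of the 7 tested Fezf2 and Groucho family genes; black points had a limma adjusted p under 0.05 and red lines are list medians. Tle4 (-1.69) and Fezf2 (-1.75) lie at the level of Foxp2 (-1.74) and Zfpm2 (-1.89), and the corepressor list stays between -0.22 and 0.15.

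The genes whose profiles over the 6 libraries were nearest to those of Fezf2 and Tle4 were found by the Euclidean distance of centred log2 values among 14332 other known genes. All of the profiles share the same 6 libraries and the same split by genotype, so the likeness is a description. For Tle4 the nearest were Zfpm2 (distance 0.280, Pearson r 0.998), Tcerg1l (0.382, r 0.989), Clic5 (0.394, r 0.982), Hs3st3b1 (0.460, r 0.982) and Myh15 (0.505, r 0.976). For Fezf2 they were Hs3st3b1 (distance 0.458, Pearson r 0.980), Zfpm2 (0.499, r 0.977), Pnliprp1 (0.590, r 0.968), Clic5 (0.633, r 0.957) and Myh15 (0.731, r 0.952). Tle4 itself lay 0.495 from Fezf2 (r 0.974), nearer than all but 1 of those genes. Hs3st3b1, which encodes a heparan sulfate sulfotransferase, had 72.3, 66.5 and 55.6 in the Fezf2 KO libraries, against 209, 292 and 198 in the wild type libraries. Tcerg1l had 460, 653 and 617 in the Fezf2 KO libraries, against 1968, 2058 and 2054 in the wild type libraries. Clic5, an intracellular channel family gene, had 39.8, 44.0 and 41.5 in the Fezf2 KO libraries, against 135, 120 and 162 in the wild type libraries. Hs3st3b1, Tcerg1l, Clic5 and Zfpm2 fell by limma. They were picked from these same libraries for likeness to Fezf2 or Tle4, which both fell, so their falls follow from the choice. The limma p values given here for the nearest genes are therefore descriptions and no separate support. In litter m1 alone Hs3st3b1 (adjusted p = 0.0828) and Clic5 (0.0877) did not pass limma. Without Fezf2 KO 1 and wild type 1 the limma adjusted p was 0.0353 for Hs3st3b1, 0.0474 for Clic5 and 0.00132 for Tcerg1l. Pnliprp1 (adjusted p = 0.0510) and Myh15 (0.0815) did not pass limma and averaged only 7.75 and 6.03 in Fezf2 KO cortex, against 24.1 and 17.5 in wild type cortex. For both genes every Fezf2 KO library lay under the level asked for by the filter, and every wild type library lay above it. Both were thus tested only because they were high in wild type cortex, and their p values carry that selection too.

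**Figure D5:**
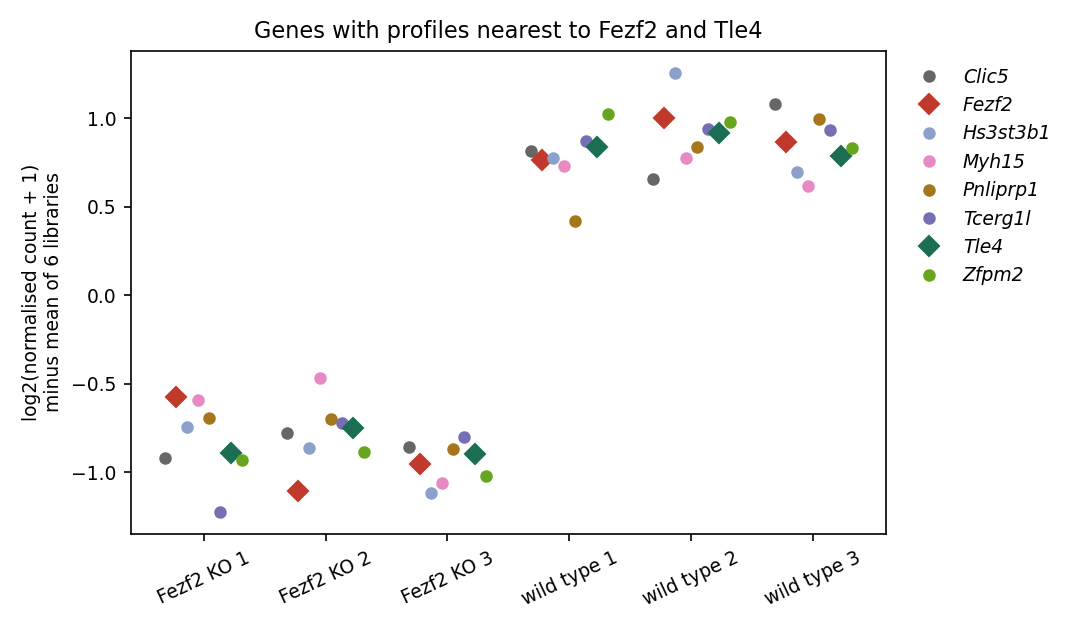
Log2(normalised count + 1) of each gene minus its mean over the 6 libraries (vertical axis), with Fezf2 KO libraries on the left; diamonds are Fezf2 and Tle4 and circles are the 6 genes nearest to either. Within the Fezf2 KO libraries Fezf2 is lowest in Fezf2 KO 2, where Tle4 is highest.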

How the data were processed

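The members, gene lists and alternatives were chosen with earlier results of these data known, so they are not independent of them. Illumina TruSeq libraries were made from the cortex RNA of single brains, per the labels. Bowtie, STAR, DESeq and build mm9 are named in the submitters' processing notes; versions, annotation and strand are not given in the sources used here. The deposited signal is read counts per gene divided by the authors' size factor of each library, not scaled to gene length. In each library 100% of values were whole multiples of the smallest step (within 0.006), which gave back whole reads; the chi-square per degree of freedom between replicates was 8.86 to 20.5, more than sampling noise.

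The 17557 genes that reached 10 in 3 or more libraries were tested with limma 3.58.1 (R 4.3.3) on log2(value + 1), a trended variance, genotype as the term and Benjamini-Hochberg adjustment. The fits were tested on simulated data. Floors cover counting error only. Named genes were the 8 members; of each list up to 6 changed genes by smallest p or, with none, the 2 with the highest mean; and the 5 nearest profiles to Fezf2 and Tle4. Some genes these rules name are not reported here. Of 90 listed genes 1 (Zeb2) had a repeated symbol, and its first entry was used. Alternatives were a pseudocount of 0.5, no filter, edgeR 4.0.16 (TMM, RLE) and DESeq2 1.42.0 on recovered reads (edgeR called 121 genes), litter m1 alone, litter as a replicate block, leaving out each library in turn, and, chosen after seeing the data, Fezf2 KO 1 and wild type 1 left out together. The labels give litter, which pairs the genotypes; deviations from genotype means correlated at -0.137 to 0.223 for same-litter and -0.162 to -0.0383 for other pairs of libraries. Tables and plots used Python 3.11.15 with pandas 2.3.3, numpy 2.4.6 and matplotlib 3.10.9.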

Additional observations from a re-analysis of the deposited data

How the results depend on the processing

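Tle4 stayed lower and past the threshold in all 14 alternatives run. With litter as a replicate block in limma 138 genes changed and 2 members did, Fezf2 and Tle4 (log2 -1.75 and -1.69), and no call of a member changed. Over all genes, 125 changed in limma (71 higher, 54 lower in Fezf2 KO), 403 with DESeq2 (242 higher, 161 lower), 29 in litter m1 alone (12 higher, 17 lower; 1 member, Tle4) and 57 without Fezf2 KO 1 and wild type 1 (28 higher, 29 lower). Leaving out 1 library gave 61 to 119 genes, 21 to 55 of them higher and 37 to 73 lower, and 2 to 3 members, where fewer libraries were fitted. Fezf2 had a log2 change of -1.72 and an adjusted p of 0.0595 in litter m1 alone. Tle3 passed with DESeq2 (log2 0.38) and in limma without Fezf2 KO 2 (0.46), and leaving out 1 library gave 0.29 to 0.46; the cause was not tested. The sign turned, with no call, for Aes in edgeR (-0.0021 with TMM, -0.0011 with RLE), in DESeq2 (-0.0011), without Fezf2 KO 1 and wild type 1 (-0.036) and with 1 library left out (-0.020 to 0.012), for Tle1 in litter m1 alone (-0.090) and with 1 library left out (-0.034 to 0.070), and for Tle2 in the same settings (-0.054, and -0.074 to 0.19). Per kilobase of exon, Tle4 held 9.73% of the Tle sum in Fezf2 KO and 29.4% in wild type cortex, and Tle3 62.9% in Fezf2 KO and 45.5% in wild type cortex. The Tle sum per kilobase was 4767, 4222 and 4620 in the Fezf2 KO libraries, against 4785, 4955 and 4714 in the wild type libraries. On this scale the genotypes overlapped only through Fezf2 KO 1. Depth limits Fezf1, with 8 reads in all, and Tle6, with 57 to 85 reads per library.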

Other observations

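Assembled noncoding transcripts named after the Tle genes were measured as well. Among them linc-Tle4-2 was low, with 4, 7 and 6 reads in the Fezf2 KO libraries, against 17, 17 and 23 reads in the wild type libraries. Its normalised counts were 3.25, 6.29 and 5.30 in the Fezf2 KO libraries, against 15.9, 14.8 and 19.8 in the wild type libraries, without overlap. The log2 change was -1.61 (95% interval -2.33 to -0.89) and did not pass over all genes (limma adjusted p = 0.0774). Every Fezf2 KO library lay under the level asked for by the filter, and every wild type library lay above it. The entry was thus tested only because it was high in wild type cortex, and its change carries that selection. At such low values the added 1 also compresses the log2 change, so its size cannot be compared with that of Tle4. linc-Tle4-1 had 0, 1 and 1 reads in the Fezf2 KO libraries, against 0, 3 and 3 reads in the wild type libraries, at or under the limit of detection.

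Near Tle3, linc-Tle3-2 averaged 21.3 ± 7.64 in Fezf2 KO cortex and 16.5 ± 7.66 in wild type cortex, and linc-Tle3-3 averaged 13.6 ± 5.97 in Fezf2 KO cortex and 10.3 ± 3.36 in wild type cortex (SD, n = 3 each), both with overlap. linc-Tle1-BP averaged 238 ± 29.1 in Fezf2 KO cortex and 236 ± 31.6 in wild type cortex, with a log2 interval of -0.31 to 0.34. No source used here states the strand, so reads of these entries and of overlapping genes cannot be told apart.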
